A study of Mus musculus with 6 samples.

Results

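The 33 genes described here encode the enzymes that make, recycle and use glutathione, the thioredoxin and peroxiredoxin systems, catalase, superoxide dismutase 1, and the transcription factor NRF2 with its inhibitor KEAP1. They were chosen by symbol, and all 33 were found among the 24594 genes of the count table. RNA-seq had been run on epithelial organoids, miniature epithelia grown in matrix from crypts of the proximal small intestine of adult mice, with 3 doxycycline libraries and 3 control libraries. The organoids of both groups had the genotype TetON-hYAP/H2B-mCherry, a doxycycline-inducible human YAP together with a red fluorescent histone reporter. The series' design text gives this YAP as constitutively active through the S127A substitution, which removes a serine at which the Hippo kinases restrain the protein. The doxycycline group had received 1 µg/ml of the drug for 48 h, begun at passaging, and the control group was labelled as control. The culture medium of both groups held EGF, Noggin and R-spondin1. Sources used here do not give the driver of the transactivator or the cells in which it acts. No library came from organoids given the drug without the transgene, so effects of doxycycline and of YAP cannot be told apart. Crypts came from 1 animal per sample per the labels' protocols, but nothing states whether the libraries of a group came from separate cultures, so p-values measure the spread between these libraries, which may be technical.

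Glutathione is a small thiol made in a pair of steps from glutamate, cysteine and glycine, and it is the main soluble reducing agent of the cell. Peroxidases spend it on hydrogen peroxide and lipid peroxides, transferases attach it to reactive compounds, and a reductase restores it with NADPH. The thioredoxin system runs in parallel and feeds the peroxiredoxins. NRF2, encoded by Nfe2l2, switches on many of these genes by binding antioxidant response elements together with small MAF proteins, while KEAP1 holds it in the cytoplasm and marks it for degradation. In the intestine these enzymes meet oxidants and reactive compounds from food, microbes and the epithelium's own oxidases.

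One control library stood apart, and this touches most of these genes. The doxycycline libraries held 11258768, 12698043 and 16803062 counts, and the control libraries 14643817, 11182703 and 8533452 counts, with control replicate 3 the lowest. Log2 CPM (read counts scaled to library size, with TMM factors) correlated at 0.991 between control replicates 1 and 2 over all genes tested, but at 0.916 and 0.919 between each of these and control replicate 3. In control replicate 3 the level was over 1.5 times the mean of the other controls for 20 of the 33 genes and under 0.67 times that mean for 3 of them, Gpx4, Mgst2 and Sod1. The gap went with transcript length in the medians, but not in every gene. Mgst2 (603 bases), Sod1 (641 bases) and Gpx4 (959 bases) have short transcripts and were low in control replicate 3. Prdx1 (2294 bases) has a long transcript and was high, at a ratio of 3.4. The long Prdx6 (2.2), Cat (1.46) and Gsr (1.27) also had ratios above 1. For the 13 genes with transcripts under 1200 bases the median ratio of control replicate 3 to the other controls was 2.72, for the 10 genes of 1200 to 2000 bases it was 2.25, and for the 10 longer genes it was 0.924. Over all genes tested these medians were 1.73, 1.47 and 0.868. The cause was not tested, and counts of genes called are given with all 6 libraries and without that library.

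**Figure D1:**
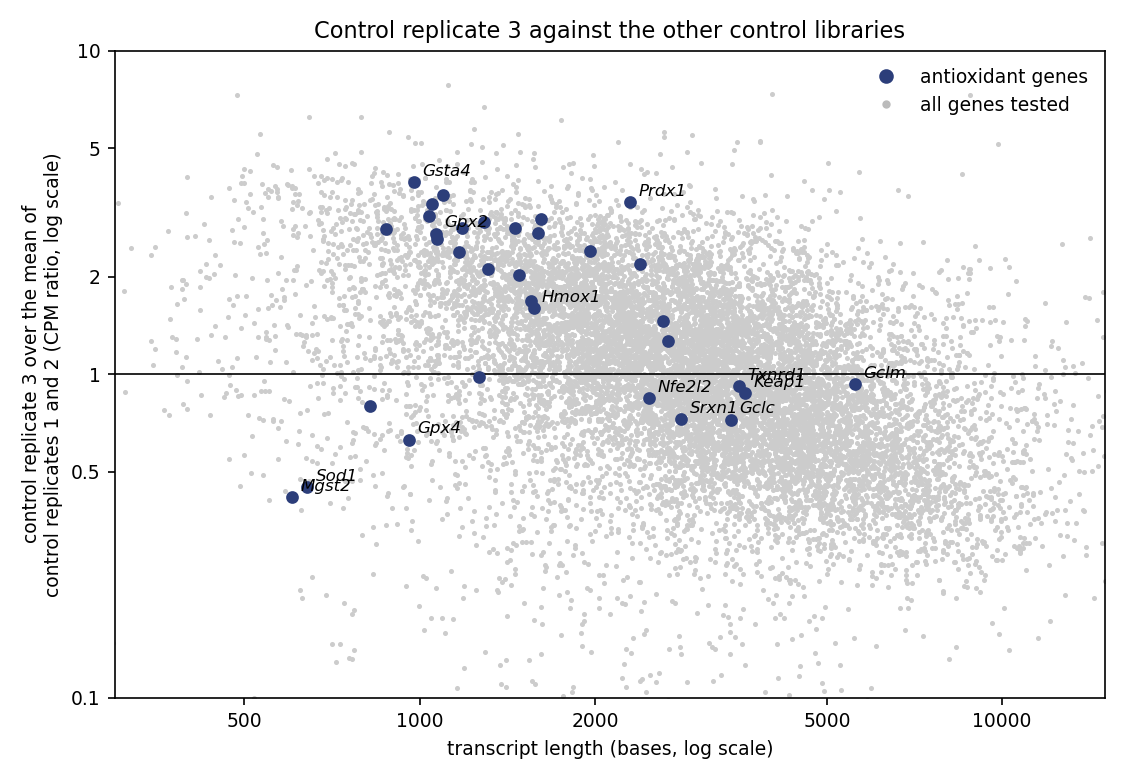
Ratio of the CPM in control replicate 3 to the mean CPM of control replicates 1 and 2 (y, log scale) against transcript length in bases (x, log scale), for the antioxidant genes (blue) and all genes tested (grey). The axes end at the values shown, so the few genes beyond them are not drawn. Most antioxidant genes with short transcripts lie above 1, up to 3.92 for Gsta4, while Gclc, Srxn1, Nfe2l2, Txnrd1, Keap1 and Gclm lie under 1. The short Mgst2, Sod1, Gstp1 and Gpx4 lie under 1 too, and the long Prdx1, Prdx6, Cat and Gsr lie above it.

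Doxycycline organoids held more RNA of NRF2 itself, of both subunits of the enzyme that starts glutathione synthesis, and of Hmox1, Srxn1, Txnrd1 and Gpx4. They held less of Gpx2, the glutathione peroxidase typical of the intestinal epithelium. None of the transferases and none of the peroxiredoxins passed the test with all 6 libraries. In edgeR's quasi-likelihood test, with Benjamini-Hochberg adjustment over 12909 genes and a threshold of 0.05, 8 of the 33 genes passed (24.2%), 7 of them higher and 1 lower. Over all genes tested, 45.3% passed, 21.7% higher and 23.6% lower, so the share of these genes that rose was near the background and the share that fell was below it. The median log2 fold change was 0.12 for the 33 genes and -0.08 for all genes tested. In bulk libraries such as these, fewer cells of a type and less RNA per cell cannot be told apart.

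Without control replicate 3, 23 of the 33 genes passed (69.7%), 21 higher and 2 lower, against 69.9% of all genes tested, 34.9% higher and 35.1% lower. The 8 genes that passed with all 6 libraries passed here too, in the same direction, 15 more passed, and 10 passed in neither fit. The median log2 fold change was then 0.65 for the 33 genes and -0.02 for all genes tested. By values alone, all 3 doxycycline libraries lay above control replicates 1 and 2 in 23 genes and below both in 3. These counts leave out control replicate 3, and the share of all genes with each pattern was not computed, so they have no background. No overlap between the groups was seen in 9 genes that were higher with doxycycline and in 1 that was lower, with all 3 controls counted. Among all genes tested 30.0% did not overlap with doxycycline higher and 31.3% with doxycycline lower. When total counts alone were used for scaling, the median of all genes tested moved to -0.53, and 6 of the 33 genes were then called higher and 5 lower, the 5 being Gpx2, Gsr, Gstp1, Mgst2 and Prdx5. Of all 12909 genes tested, 1747 were then called higher and 5131 lower.

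**Figure D2:**
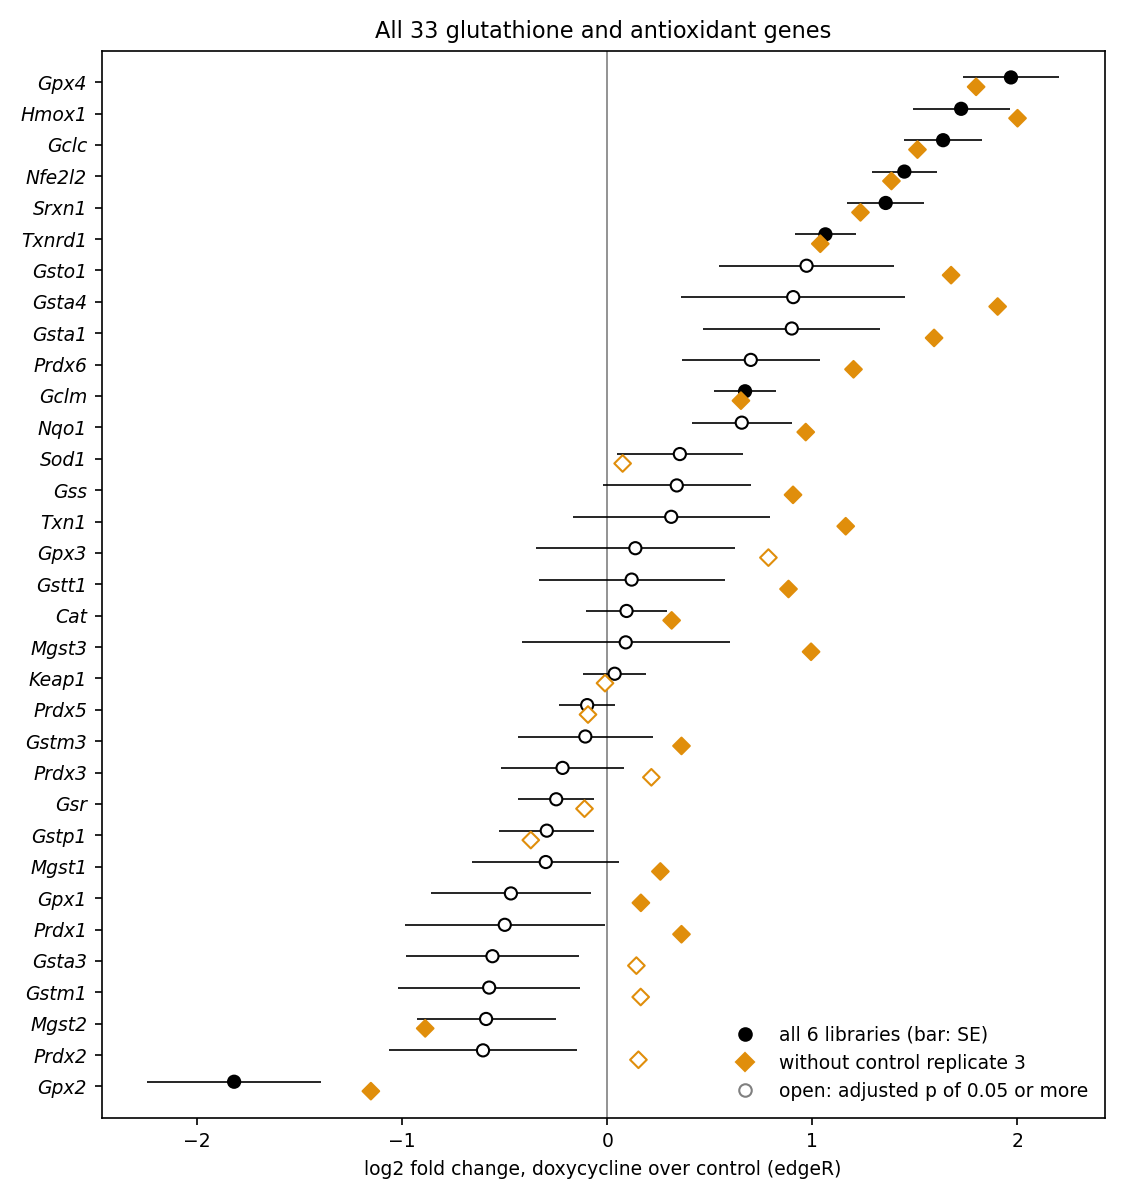
Log2 fold change of doxycycline over control (x) for all 33 genes, ordered by value, from all 6 libraries (black circles, bars ± SE) and without control replicate 3 (orange diamonds). Filled symbols passed the edgeR threshold. The 6 genes from Gpx4 (1.97) to Txnrd1 (1.06) at the top and Gpx2 (-1.82) at the bottom were filled in both fits, as was Gclm (0.67). Diamonds of most other genes lie to the right of their circles.

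Nfe2l2 (chr2:75675513-75704663, minus strand, GRCm38.p6), the gene of NRF2, had 1077, 1064 and 1110 CPM in the doxycycline libraries, against 403, 435 and 353 CPM in the control libraries. Every doxycycline library was more than 2 times as high as any control library. The means were 1084 ± 23.9 CPM with doxycycline and 396.8 ± 41.3 CPM in control organoids (SD, n = 3 each), a 2.73-fold rise (log2 fold change 1.45, SE 0.16, edgeR adjusted p = 0.000528). Keap1, the gene of its inhibitor, had 144.0, 164.7 and 164.5 CPM with doxycycline and 155.4, 166.0 and 140.2 CPM in control libraries. These values overlapped, with a log2 fold change of 0.04 (SE 0.15, edgeR adjusted p = 0.869), or -0.01 without control replicate 3.

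RefSeq promoter windows of GRCm38.p6, the 250 bases upstream of an annotated start, were found for 28 of the 33 genes, in 35 windows since some genes have several starts. The core of the antioxidant response element, TGACNNNGC on either strand, lay in windows of 7 genes (Nfe2l2, Gclm, Txnrd1, Gsta3, Mgst1, Prdx1 and Sod1), in 7 of the 35 windows. It lay in 10.2% of all 32851 RefSeq mouse promoter windows of that length. The AP-1 sequence TGANTCA, which overlaps the core at Prdx1, lay in windows of 4 genes (Gstp1, Mgst2, Prdx1 and Srxn1) and in 6.7% of all windows. The TEAD sequence GGAATG, bound by the partners of YAP, lay in 0 of the windows of these genes and in 12.6% of all windows. The windows below belong to the 3 genes that rose and held the core, and each is printed 5′ to 3′ on the strand of its gene with the match in capitals. Gclm was added to this display after its values were seen. The Nfe2l2 window, chr2:75704664-75704913 on the minus strand, has the match beginning 240 bases upstream of the start.
Nfe2l2: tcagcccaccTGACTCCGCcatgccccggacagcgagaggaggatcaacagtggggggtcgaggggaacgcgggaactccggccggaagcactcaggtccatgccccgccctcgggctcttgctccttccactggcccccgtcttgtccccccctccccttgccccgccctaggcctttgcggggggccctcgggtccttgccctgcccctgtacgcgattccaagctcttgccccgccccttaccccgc
The Txnrd1 window, chr10:82858956-82859205 on the plus strand, belongs to 1 of 3 annotated starts, and its match, on the opposite strand, begins 92 bases upstream.
Txnrd1: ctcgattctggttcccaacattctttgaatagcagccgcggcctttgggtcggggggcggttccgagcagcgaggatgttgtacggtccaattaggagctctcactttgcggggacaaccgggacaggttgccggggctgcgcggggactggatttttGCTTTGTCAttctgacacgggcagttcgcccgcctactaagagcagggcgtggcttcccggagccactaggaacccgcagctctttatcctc
The Gclm window, chr3:122245307-122245556 on the plus strand, has a match on the opposite strand that begins 134 bases upstream.
Gclm: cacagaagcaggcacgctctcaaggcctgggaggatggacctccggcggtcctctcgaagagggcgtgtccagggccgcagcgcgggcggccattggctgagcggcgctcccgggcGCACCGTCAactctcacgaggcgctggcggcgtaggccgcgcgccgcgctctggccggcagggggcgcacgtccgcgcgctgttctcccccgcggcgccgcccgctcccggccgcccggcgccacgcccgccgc
Such a match is a description of letters. Gpx2, the gene that fell, and the risers Gpx4 and Srxn1 had no match to the core in their windows, and Gclc and Hmox1 had no window in the table.

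The enzymes of glutathione synthesis rose at the first step. Gclc (chr9:77754535-77794489), the catalytic subunit of glutamate-cysteine ligase and the rate-limiting enzyme of the pathway, had 2250, 2148 and 2075 CPM in the doxycycline libraries and 710.2, 817 and 553 CPM in the control libraries. The groups lay far apart, at 2158 ± 87.8 CPM with doxycycline and 693 ± 133 CPM in control organoids (SD, n = 3 each), a 3.11-fold rise (log2 fold change 1.64, SE 0.19, edgeR adjusted p = 0.000733). Gclm (chr3:122245487-122267215), the modifier subunit that makes the catalytic subunit more efficient, rose as well. It had 614, 619 and 681 CPM with doxycycline and 388, 432 and 381 CPM in control libraries, which did not overlap. Its rise was 1.59-fold (log2 fold change 0.67, SE 0.15, edgeR adjusted p = 0.00982). The call was lost without doxycycline replicate 3 (adjusted p = 0.0572) and on total counts alone (log2 fold change 0.23, adjusted p = 0.224). It was also lost with the replicate number as a block (edgeR adjusted p = 0.0538).

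The later steps did not pass with all 6 libraries. Gss, glutathione synthetase, which adds the glycine, had 173.4, 161.2 and 175.5 CPM with doxycycline and 86.1, 97.4 and 220.0 CPM in control libraries. Control replicates 1 and 2 lay below every doxycycline library and control replicate 3 above them all. The log2 fold change was 0.34 (edgeR adjusted p = 0.475), and without control replicate 3 it was 0.91 (adjusted p = 1.23e-08). Gsr, the reductase that restores glutathione from its oxidised form, had 614, 502 and 565 CPM with doxycycline and 551, 671 and 776 CPM in control libraries. These ranges overlapped, with a log2 fold change of -0.25 (edgeR adjusted p = 0.307) and of -0.11 without control replicate 3 (adjusted p = 0.303). On total counts alone Gsr was called lower (-0.69, adjusted p = 0.0189).

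**Figure D3:**
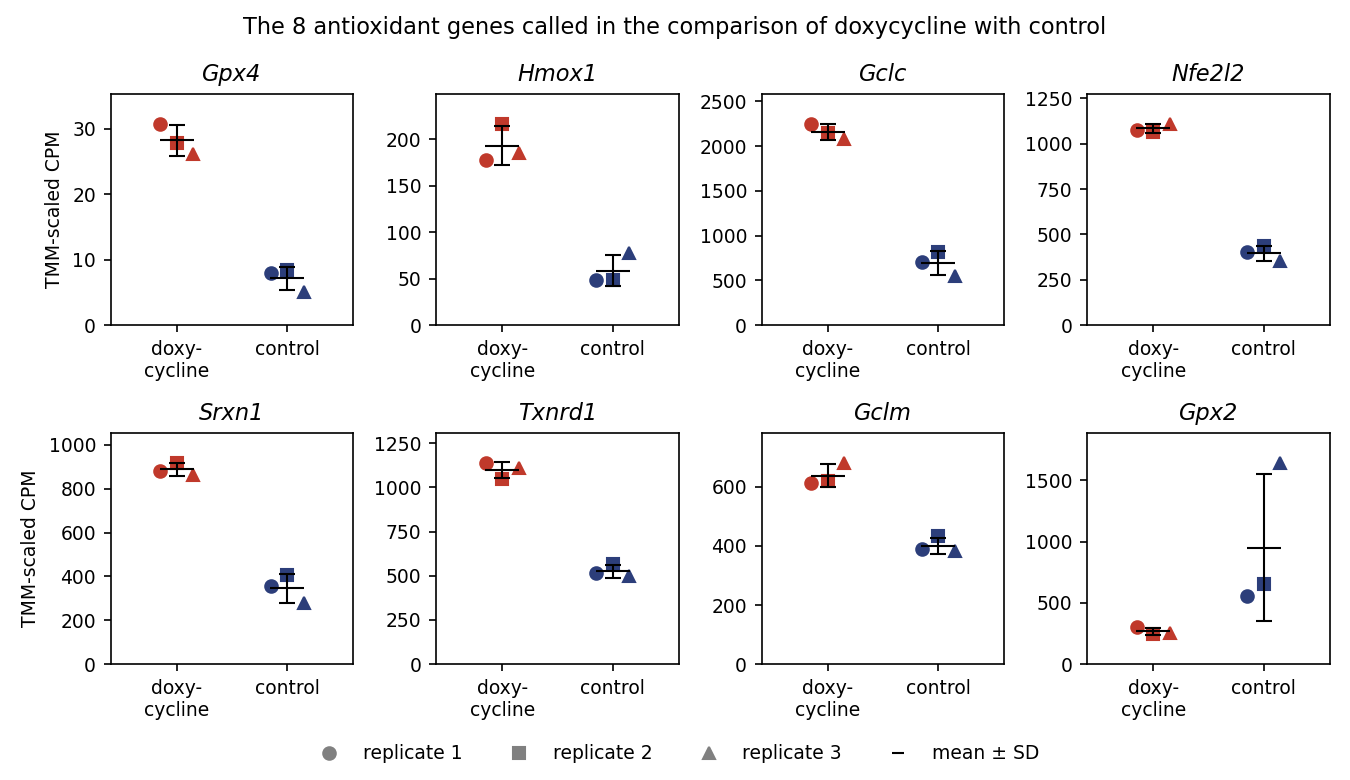
TMM-scaled CPM (y, from 0) of the 8 genes called, in the doxycycline (red, left) and control (blue, right) libraries, with a marker shape per replicate and the mean ± SD (n = 3). Groups do not overlap in any of the 8 panels, and control replicate 3 of Gpx2, at 1645 CPM, lies far above the other controls.

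The glutathione peroxidases went in opposite directions. Gpx2 (chr12:76792335-76795554), which encodes the peroxidase found mainly in the gastrointestinal epithelium and there most in crypts, had 302, 250 and 256 CPM in the doxycycline libraries, against 554, 657 and 1645 CPM in the control libraries. Every control library exceeded every doxycycline library, and control replicate 3 was more than 2 times the next control. This was a log2 fold change of -1.82 (SE 0.42, edgeR adjusted p = 0.0124), a level of 0.283 times the control. Leaving out control replicate 3 brought it to -1.15 (adjusted p = 8.17e-09). The call was lost without doxycycline replicate 2 (adjusted p = 0.0576) or doxycycline replicate 3 (adjusted p = 0.0559).

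Gpx4 (chr10:80047166-80056439), the selenoenzyme that reduces lipid peroxides within membranes and protects against ferroptosis, had 30.7, 27.8 and 26.1 CPM with doxycycline and 7.95, 8.39 and 5.13 CPM in control libraries. All doxycycline values were more than 3 times every control value. The rise was 3.91-fold (log2 fold change 1.97, SE 0.24, edgeR adjusted p = 0.00083), and 3.48-fold without control replicate 3. Of the 50-base stretches of the Gpx4 transcript, 68.9% also occur in the pseudogene Gpx4-ps2, so its count depends on the treatment of reads that match both, which the sources used here do not give. Gpx4-ps2 was not analysed here, and the part of the shared sequence in this rise was not tested.

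Gpx1, the widely expressed cytosolic glutathione peroxidase, had 547, 504 and 522 CPM with doxycycline and 455, 490.1 and 1233 CPM in control libraries. Its doxycycline values lay above control replicates 1 and 2 and below control replicate 3, and the sign of its log2 fold change turned, at -0.47 with all libraries (edgeR adjusted p = 0.361) and 0.16 without control replicate 3 (adjusted p = 0.0464). Gpx3, the secreted plasma form, was the lowest of the 33 genes per length of transcript, with 2.63 to 4.38 CPM in the doxycycline libraries and 1.77 to 5.23 CPM in the control libraries. It passed neither fit.

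Among the 8 cytosolic glutathione transferases, which conjugate glutathione to electrophiles and drugs, none was called with all 6 libraries in edgeR, and none had an unadjusted p under 0.05. DESeq2 called 1, Gsto1, as higher (adjusted p = 0.0486), and limma-voom called 0. The median log2 fold change of the group was 0.01. Their summed CPM was 4945, 3989 and 3929 in the doxycycline libraries, against 2927, 3107 and 7870 in the control libraries, so the doxycycline sums lay between the first pair of controls and control replicate 3. Without control replicate 3, 5 of the 8 were called higher and 0 lower, with a median log2 fold change of 0.62. Over all genes, edgeR called 45.3% with all 6 libraries. Without control replicate 3 it called 34.9% higher and 35.1% lower, with a median log2 fold change of -0.02. These shares are also the background for the smaller groups of genes below.

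Gsta4, an alpha-class enzyme specialised for the lipid peroxidation product 4-hydroxynonenal, had 322, 286 and 276 CPM with doxycycline and 70.7, 88.5 and 312 CPM in control libraries. Control replicate 3 lay within the doxycycline range and the other controls more than 3 times below it. Its log2 difference was 0.91 (SE 0.55, edgeR adjusted p = 0.216) with all libraries and 1.90 (adjusted p = 2.46e-11) without control replicate 3. Gsto1, an omega-class enzyme that removes glutathione from proteins and reduces dehydroascorbate, had 851, 739.9 and 754 CPM with doxycycline and 240.2, 254 and 703 CPM in control libraries. No control reached the doxycycline values, yet control replicate 3 came close, and the log2 difference was 0.97 (SE 0.43, edgeR adjusted p = 0.103) with all libraries and 1.68 (adjusted p = 4.83e-13) without that library.

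The remaining cytosolic transferases did not pass with all libraries. Gsta1 averaged 24.7 ± 2.42 CPM with doxycycline and 13.4 ± 8.80 CPM in control organoids (SD, n = 3 each), with a log2 fold change of 0.90, or 1.59 without control replicate 3 (edgeR adjusted p = 4.99e-08). Of its transcript's 50-base stretches 89.7% occur in other genes, mainly Gm3776 and Gsta2, so the Gsta1 row cannot be separated from these. Gstt1, a theta-class enzyme, had a log2 fold change of 0.12 with all libraries and 0.88 without control replicate 3 (adjusted p = 1.56e-05), and for Gstm3 the values were -0.11 and 0.36 (adjusted p = 0.0181). Gsta3 (-0.56 and 0.14), the mu-class enzyme gene Gstm1 (-0.58 and 0.16) and the pi-class enzyme gene Gstp1 (-0.30 and -0.37) passed in neither fit. Gstp1 shares 62.3% of its 50-base stretches with Gstp2.

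Microsomal transferases, which sit in membranes, did not pass either, with 0 of 3 called by edgeR, by DESeq2 and by limma-voom and 0 at an unadjusted p under 0.05. Mgst2, known for making leukotriene C4 and for lipid peroxide reduction, had 83.0, 96.2 and 97.0 CPM in the doxycycline libraries and 187, 157.0 and 71.8 CPM in the control libraries. It was the microsomal gene with control replicate 3 below the doxycycline values and the other controls above them. The log2 fold change was -0.59 (edgeR adjusted p = 0.194), and -0.89 without control replicate 3 (adjusted p = 5.05e-08). Mgst3 had a log2 fold change of 0.09 with all libraries and 0.99 without control replicate 3 (adjusted p = 2.09e-07), and for Mgst1 the values were -0.30 and 0.26 (adjusted p = 0.00747).

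Hmox1 (chr8:75093618-75100593), heme oxygenase 1, which breaks heme down to biliverdin, iron and carbon monoxide, rose too. It had 178, 217 and 186 CPM with doxycycline and 48.9, 48.7 and 78.0 CPM in control libraries. The lowest doxycycline value was more than 2 times the highest control value. The rise was 3.31-fold (log2 fold change 1.73, SE 0.24, edgeR adjusted p = 0.00146) and 4.0-fold without control replicate 3. Nqo1, the quinone reductase often read as a marker of NRF2 activity, had 411, 368 and 412 CPM with doxycycline and 196, 214 and 346 CPM in control libraries. The groups did not overlap, but the log2 fold change of 0.66 (SE 0.24) missed the threshold with edgeR (adjusted p = 0.0641). DESeq2 (adjusted p = 0.0283) and limma-voom (adjusted p = 0.048) called it, as did edgeR without control replicate 3, at 0.97 (adjusted p = 1.62e-09).

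In the thioredoxin system, the reductase and sulfiredoxin rose. Txnrd1 (chr10:82833951-82897724), the selenoenzyme that reduces cytosolic thioredoxin with NADPH, had 1140, 1049 and 1109 CPM in the doxycycline libraries and 516, 565 and 496 CPM in the control libraries. Both groups were tight and did not overlap, with a 2.09-fold rise (log2 fold change 1.06, SE 0.15, edgeR adjusted p = 0.00146). Srxn1 (chr2:152105524-152111376), which repairs over-oxidised peroxiredoxins, had 884, 919 and 862 CPM with doxycycline and 355, 407 and 277 CPM in control libraries. Its lowest doxycycline library was more than 2 times its highest control library, and the rise was 2.56-fold (log2 fold change 1.36, SE 0.19, edgeR adjusted p = 0.00141). Txn1, thioredoxin itself, had 108, 97.8 and 103 CPM with doxycycline and 45.9, 46.8 and 156 CPM in control libraries. Its controls fell on both sides of the doxycycline values, with a log2 fold change of 0.31 (edgeR adjusted p = 0.627), and 1.16 without control replicate 3 (adjusted p = 6.26e-10).

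The peroxiredoxins, which remove peroxides with electrons from thioredoxin, gave 0 of 5 calls with all libraries by edgeR, DESeq2 and limma-voom, and 0 at an unadjusted p under 0.05. Prdx6, the member that uses glutathione and repairs membrane phospholipids, had 977, 829.6 and 802 CPM in the doxycycline libraries and 361, 404 and 841 CPM in the control libraries. Control replicate 3 lay within the doxycycline range and the other controls below it, so that the log2 fold change was 0.70 (edgeR adjusted p = 0.131) with all libraries and 1.20 (adjusted p = 1.64e-09) without that library. For Prdx1, the abundant cytosolic form, the values were -0.50 and 0.36 (adjusted p = 0.000753). Cytosolic Prdx2 (-0.61 and 0.15) and mitochondrial Prdx3 (-0.22 and 0.22) changed sign between the fits without passing in either, and Prdx5 (-0.10 and -0.09) did not pass in either. Prdx5 shares 29.7% of its 50-base stretches with the antisense gene Trmt112, and parts of the Prdx2 transcript lie antisense to Junb and Rnaseh2a. The sources used here do not say whether counting used strand, so reads of these neighbours cannot be told apart from their own.

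Catalase and superoxide dismutase 1 showed small differences, and edgeR, DESeq2 and limma-voom called 0 of the 2, with 0 at an unadjusted p under 0.05. Cat, the peroxisomal enzyme that splits hydrogen peroxide, had 321, 294 and 302 CPM with doxycycline and 247, 249.7 and 363 CPM in control libraries. Again control replicate 3 was the highest of all libraries, with a log2 fold change of 0.09 (edgeR adjusted p = 0.724), and 0.31 without it (adjusted p = 0.000848). Sod1, the cytosolic copper and zinc enzyme that turns superoxide into hydrogen peroxide, had 53.1, 52.7 and 48.0 CPM with doxycycline and 49.4, 48.7 and 21.9 CPM in control libraries. Control replicate 3 stood below all others, and without it the log2 fold change of 0.35 was 0.08 (edgeR adjusted p = 0.508).

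**Figure D4:**
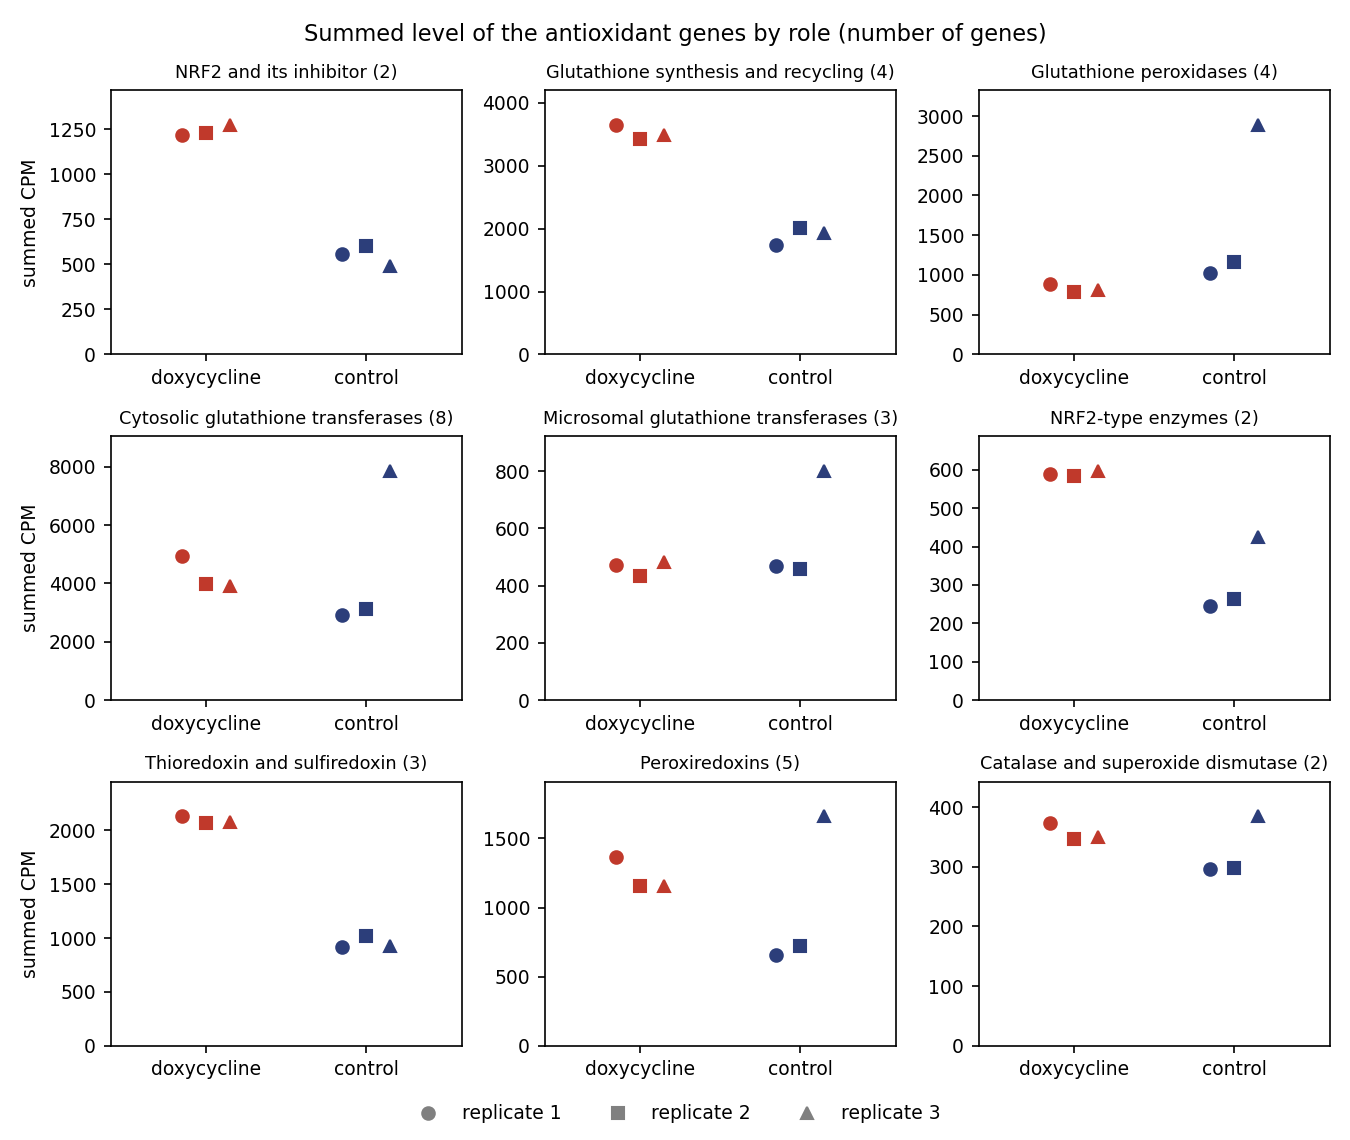
Summed CPM (y, from 0) of the genes of each role in the doxycycline (red, left) and control (blue, right) libraries, a marker shape per replicate, with the number of genes in each title. The sums for glutathione synthesis and recycling (3431 to 3651 with doxycycline, 1736 to 2018 in control) and for thioredoxin and sulfiredoxin (2066 to 2131 with doxycycline, 917 to 1019 in control) separate with doxycycline higher, and those for the peroxidases (784 to 883 with doxycycline, 1019 to 2888 in control) separate with doxycycline lower. Sums for NRF2 with its inhibitor (1221 to 1275 with doxycycline, 493 to 601 in control) also separate with doxycycline higher. The same holds for the NRF2-type enzymes Nqo1 and Hmox1 (585 to 598 with doxycycline, 245 to 424 in control). Control replicate 3 lies above every doxycycline library and the other controls do not for both kinds of transferases, the peroxiredoxins, and catalase with superoxide dismutase 1.

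Summed over all 33 genes, the level was 15630, 14020 and 14170 CPM in the doxycycline libraries and 8824, 9640 and 17380 CPM in the control libraries. Control replicate 3 was the highest and the other controls the lowest, so the groups overlapped at 14610 ± 891 CPM with doxycycline and 11950 ± 4722 CPM in control organoids (SD, n = 3 each). Divided by transcript length, the order of the genes shifted at several places. In doxycycline organoids the highest mean levels were those of Gstm3 (1234 CPM per kb), Gstm1 (1142), Gsto1 (661.5), Gclc (630.4) and Gpx1 (489). In control organoids they were those of Gstm1 (1702 CPM per kb), Gstm3 (1329), Gpx2 (892), Gpx1 (677) and Gsto1 (337). Gclc ranked 4 with doxycycline and 10 in control, Nfe2l2 ranked 6 and 13, Hmox1 16 and 28, and Gpx2 13 and 3. These ranks use the means of all 3 libraries of a group, so control replicate 3 enters the control ranks, and the difference in rank was not tested.

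The genes around this system were taken from 12 lists, with 166 members tested outside the 33 genes. Of these 40 were higher and 36 lower (45.8% called), with a median log2 fold change of 0.16, and without control replicate 3 90 of 167 were higher and 46 lower (81.4%). Against the background of 45.3% (69.9% without that library), the share called was near the background with all libraries. By direction, 21.7% of all genes tested were higher and 23.6% lower. Without control replicate 3 these shares were 34.9% and 35.1%. They are the background for each list below. Among the 15 partners and regulators of NRF2, 6 rose and 3 fell (7 and 3 without control replicate 3). Maff and Mafk, small MAF proteins that pair with NRF2 on DNA, averaged 129.0 ± 5.11 and 304.9 ± 6.99 CPM with doxycycline and 35.7 ± 4.66 and 115.2 ± 3.28 CPM in control organoids (SD, n = 3 each). Their log2 fold changes were 1.85 (edgeR adjusted p = 0.000247) and 1.40 (edgeR adjusted p = 0.000402). Bach2, a repressor that binds the same elements with MAF proteins, averaged 13.0 ± 2.53 CPM with doxycycline and 1.05 ± 0.65 CPM in control organoids, a log2 fold change of 3.58 (edgeR adjusted p = 0.00103).

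Cysteine supply and glutathione breakdown gave 2 genes higher and 3 lower of 17, and 11 and 4 without control replicate 3. Slc1a5, a neutral amino acid transporter that brings in glutamine, fell by 1.11 on the log2 scale (64.0 ± 2.85 CPM with doxycycline, 138.0 ± 7.28 CPM in control, edgeR adjusted p = 0.00104). Cbs, which starts the making of cysteine from homocysteine, averaged 1.05 CPM with doxycycline and 7.30 CPM in control organoids (log2 fold change -2.71, edgeR adjusted p = 0.0179), a call lost without doxycycline replicate 1. Chac1, which degrades glutathione, averaged 86.5 CPM with doxycycline and 51.1 CPM in control organoids (log2 fold change 0.76, edgeR adjusted p = 0.0214), and leaving out any library but control replicate 3 ended that call. Of the 14 genes of NADPH supply, 3 rose and 3 fell (7 and 5 without control replicate 3). The risers were the cytosolic malic enzyme gene Me1 (log2 fold change 1.12), the transketolase gene Tkt (1.05) and the NAD kinase gene Nadk (0.81), with the last call lost on total counts.

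The list of other glutathione transferases, which also holds Alox5ap, not itself a transferase, ran lower. Of 16 tested, 1 was higher and 9 lower, with a median log2 fold change of -0.93, against 21.7% higher and 23.6% lower of all genes tested. Without control replicate 3 the counts were 3 and 10, against 34.9% and 35.1%. Gstcd fell by 1.27 on the log2 scale (12.8 ± 0.30 CPM with doxycycline, 30.8 ± 2.65 CPM in control), Gstt2 by 0.76 and Gstm6 by 1.11. The Gstt2 call was lost without doxycycline replicate 3 (adjusted p = 0.0648), and the Gstm6 call on leaving out any doxycycline library and with limma-voom (adjusted p = 0.062). The list shares Hpgds, Ltc4s and Alox5ap, which fell, with the 6 tuft cell markers, whose summed CPM overlapped between the groups (18.3 to 22.5 with doxycycline, 20.6 to 28.7 in control). Among 5 other peroxidases and superoxide dismutases, 2 rose and 1 fell (4 and 1 of 6 without control replicate 3). Sod3, the extracellular superoxide dismutase, had 5.45 ± 1.05 CPM with doxycycline and 0.448 ± 0.254 CPM in control organoids (log2 fold change 3.58, edgeR adjusted p = 0.00119), while Prdx4, the peroxiredoxin of the endoplasmic reticulum, fell by 1.65 on the log2 scale, a call lost without doxycycline replicate 1. Mitochondrial Sod2 averaged 92.6 ± 5.75 CPM with doxycycline and 71.1 ± 1.77 CPM in control organoids and missed the threshold (log2 fold change 0.38, edgeR adjusted p = 0.0595). Other thioredoxin, glutaredoxin and repair genes gave 1 higher and 2 lower of 19, with Txnrd3 falling by 1.26 and Glrx3 by 0.89 on the log2 scale, and without control replicate 3 there were 8 and 5. For Glrx3 the call was lost on leaving out control replicate 2 or either of doxycycline replicates 1 and 2 (highest adjusted p = 0.11).

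Of 13 heme and iron genes, 5 rose and 0 fell with edgeR, counts that were also 5 and 0 at an unadjusted p under 0.05, 6 and 0 with DESeq2 and 5 and 0 with limma-voom. Called genes made up 38.5% of this list, against 45.3% of all genes tested. Without control replicate 3, 12 rose and 0 fell, with 34.9% of all genes then higher. Slc40a1, the iron exporter ferroportin, had 1292, 1402 and 1454 CPM in the doxycycline libraries and 169.4, 189 and 149.9 CPM in the control libraries. All doxycycline libraries were far above every control library, an 8.16-fold rise (log2 fold change 3.03, SE 0.17, edgeR adjusted p = 6.63e-05). Ncoa4, the receptor that delivers ferritin for degradation, rose by 2.43 on the log2 scale (50.0 ± 2.19 CPM with doxycycline, 9.24 ± 0.963 CPM in control). Heph, the ferroxidase that works with ferroportin in enterocytes, rose by 1.67 (175.6 ± 1.98 CPM with doxycycline, 55.4 ± 3.74 CPM in control). In the metal list 2 of 6 rose and 0 fell with edgeR, DESeq2 and limma-voom and at an unadjusted p under 0.05 (6 and 0 with edgeR without control replicate 3), with the zinc importer gene Slc39a4 at a log2 fold change of 1.92 and the zinc-sensing factor gene Mtf1 at 0.75, a call that Mtf1 lost on total counts and with the length trend removed.

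The selenoprotein list, which mixes synthesis factors with selenoproteins such as Selenoi, gave 2 genes higher and 5 lower of 18. Without control replicate 3 the counts were 7 and 6. The glutathione peroxidases Gpx1 to Gpx4 and Txnrd1 depend on the synthesis factors. Selenoi rose by 1.74 and Selenop, the selenium carrier, by 0.81 on the log2 scale, the Selenop call being lost on total counts (0.37, adjusted p = 0.0805), and Eefsec, the elongation factor for selenocysteine, fell by 0.81. Other NRF2 target enzymes and pumps gave 7 higher and 1 lower of 19 (12 and 2 without control replicate 3). Abcc5, an export pump, averaged 175.6 ± 6.45 CPM with doxycycline and 35.6 ± 3.17 CPM in control organoids (log2 fold change 2.30, edgeR adjusted p = 0.000101), and the esterase gene Esd and Osgin1 rose by 1.70 and 1.13. Among 14 oxidant-producing enzymes, 5 rose and 7 fell (6 and 7 without control replicate 3). Duox2, the hydrogen peroxide-making oxidase of the gut surface, had 0.548 ± 0.201 CPM with doxycycline and 16.1 ± 4.07 CPM in control organoids (log2 fold change -4.81, edgeR adjusted p = 0.000176), whereas the monoamine oxidase genes Maoa and Maob rose by 1.84 and 1.61. Of 10 genes around lipid peroxides outside Gpx4, 4 rose and 2 fell (7 and 3 without control replicate 3). The list mixes genes of defence with others, such as Acsl4, that favour peroxidation. Gch1, which starts tetrahydrobiopterin synthesis, rose by 2.43, Aifm2, the ferroptosis suppressor that reduces coenzyme Q, by 2.24, and Acsl4, which loads the polyunsaturated lipids that peroxidise, by 1.25.

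**Figure D5:**
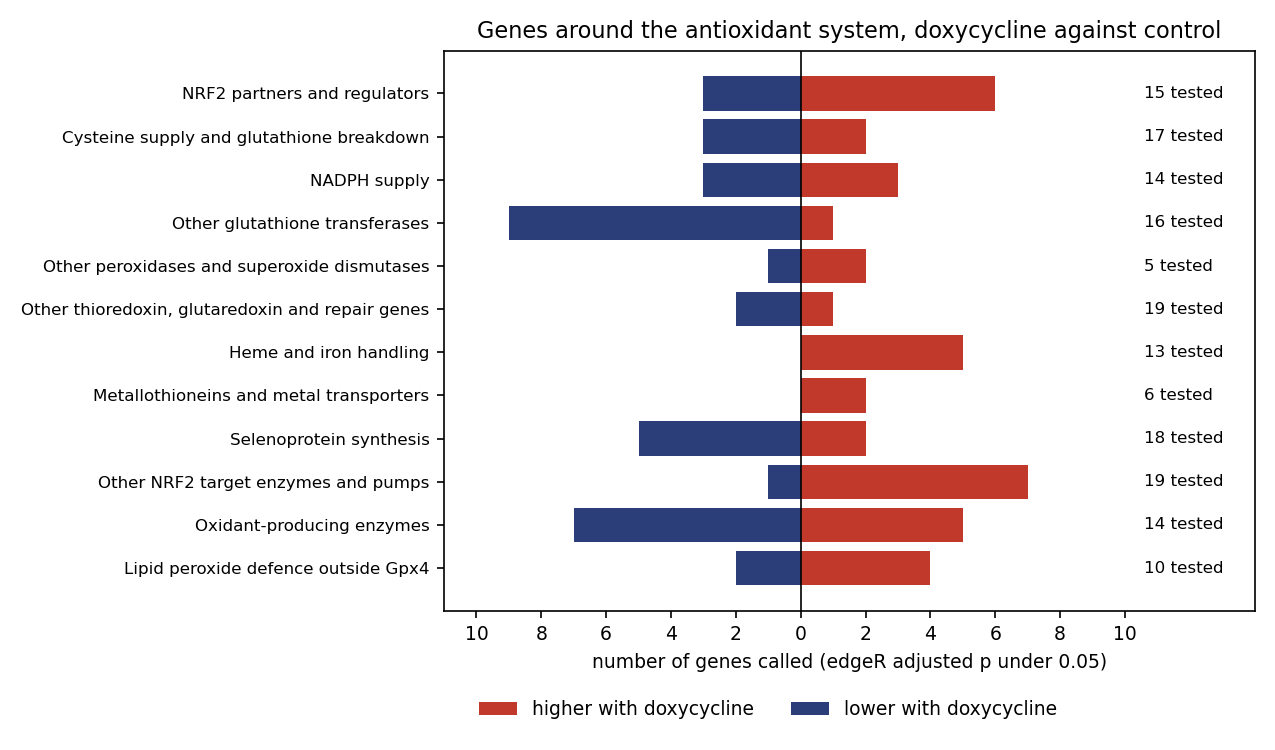
Number of genes called by edgeR with all 6 libraries in each of the 12 surrounding lists, lower with doxycycline to the left of 0 (blue) and higher to the right (red), with the number tested at the right. Other glutathione transferases show 9 lower and 1 higher, and heme and iron handling 5 higher and 0 lower. Over all genes tested, 21.7% were higher and 23.6% lower. The lipid peroxide list also holds genes that favour peroxidation, and the selenoprotein list also holds selenoproteins. The transferase list also holds Alox5ap, which is not a transferase.

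Markers of cell types moved with the groups. The labelled epithelium was present, with summed CPM of 8 epithelial markers of 17880 to 19070 in the doxycycline libraries and 4619 to 5273 in the control libraries. Of these 8 markers, 5 were higher and 1 was lower. Summed CPM of 9 enterocyte markers was 19620 to 20860 with doxycycline and 2542 to 4178 in control libraries, with 7 of the 9 higher. All 5 crypt base stem cell markers fell, with sums of 44.0 to 50.3 CPM with doxycycline and 3886 to 5332 CPM in control libraries, and so did all 5 Paneth cell markers, with sums of 34.1 to 39.1 CPM with doxycycline and 2294 to 4679 CPM in control libraries. Proliferation genes gave 4 of 6 lower, with sums of 380.1 to 422 CPM with doxycycline and 794 to 1323 CPM in control libraries. Goblet markers gave 5 of 6 lower, but their sums overlapped, at 822 to 1205 CPM with doxycycline and 354 to 1323 CPM in control libraries. Tuft markers gave 4 of 6 lower, with the overlapping sums given above. Enteroendocrine markers gave 2 of 4 lower, with sums of 182 to 214 CPM with doxycycline and 322 to 508 CPM in control libraries. Without control replicate 3, all 9 enterocyte markers were higher, and 5 of 5 stem cell, 5 of 5 Paneth cell, 5 of 6 goblet, 4 of 6 tuft, 5 of 5 enteroendocrine and 5 of 6 proliferation markers were lower. Mesenchymal markers summed to 0.925 to 1.70 CPM with doxycycline and 3.42 to 6.26 CPM in control libraries, with Col1a1 and Dcn at 0 in every library, and immune markers to 2.43 to 2.97 CPM with doxycycline and 1.77 to 5.21 CPM in control libraries. Control replicate 3 did not separate from the other controls on the epithelial sum, at 4684 CPM, but had the highest control sums for enterocyte (4178 CPM) and Paneth cell (4679 CPM) markers and the lowest for stem cell (3886 CPM), goblet (354 CPM), tuft (20.6 CPM), enteroendocrine (322 CPM) and proliferation (794 CPM) markers. Its goblet sum lay below every doxycycline library. The part of these shifts in cell type in the changes of Nfe2l2, Gclc, Gpx2 and the other genes above was not tested.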

How the data were processed

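Read counts per gene, whole numbers, were deposited by the authors for 6 libraries. Per the labels' protocols, RNA was prepared with a column kit, libraries with a TruSeq kit, and sequencing was on a NextSeq; mm10 is named in the submitters' processing notes. Sources used here name no aligner or counter and do not state the use of strand. Symbols came from RefSeq's GRCm38.p6 gene table, which matched 24570 of 24594 IDs. The other 24 held 2.88 to 4.43% of the counts.

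The test was run in edgeR 4.0.16 (R 4.3.3) on the counts: expression filter by group, TMM factors, robust quasi-likelihood F-test, Benjamini-Hochberg adjustment over 12909 genes, threshold 0.05. "Rose", "fell" and "called" mean past that threshold. Each of the 33 genes passed the filter, with at least 23 counts in every library. CPM are TMM-scaled. Transcript length is that of the principal GENCODE transcript, and shared stretches are its 50-base words found in transcripts of other genes, on either strand. Of the 33 genes, 18 shared no such word. Another 8 shared over 20% of them, namely Gpx4, Gsta1, Gstm1, Gstm3, Gstp1, Prdx2, Prdx5 and Sod1.

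The 33 genes and the surrounding lists were chosen with earlier results of these data known. From each list, up to 3 genes with the smallest adjusted p and a mean of at least 5 CPM in a group were named, and Hpgds, Ltc4s and Alox5ap as tuft markers, after their values were seen. Alternatives were RLE factors, total counts, 2 low-count filters, DESeq2 1.42.0, limma-voom (limma 3.58.1), a replicate block, each library left out and a threshold of 0.01. Removal of a trend with transcript length was added after the data were seen.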

Additional observations from a re-analysis of the deposited data

How the results depend on the processing

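Nfe2l2, Gclc, Gpx4, Hmox1, Txnrd1 and Srxn1 kept their direction and call under all 15 alternatives. Of the 33 genes, 6 to 23 were called when each library was left out in turn, 6 to 21 higher and 0 to 2 lower. The highest counts were those without control replicate 3, and edgeR called no gene lower without doxycycline replicate 2 or doxycycline replicate 3, while DESeq2 and limma-voom, with all libraries, called 1. Over all genes these fits called 3836 to 9286, and over the surrounding lists 49 to 136. Without doxycycline replicate 2 or 3, 3862 and 3836 of all genes were called, against 5850. With the length trend removed, 13 of the 33 were called, 12 higher, but calls also rose over all genes. Of the 12847 genes then tested, 6543 were called, 3246 of them higher. At a threshold of 0.01 the edgeR count lower was 0, with 3477 of all genes and 43 of the surrounding lists called. On total counts 5 were lower, as were 5131 of all 12909 genes tested. The mean summed level was then 12540 CPM with doxycycline and 13930 CPM in control organoids.

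Whether the replicate numbers pair the libraries is not known. Deviations of same-numbered libraries from their group means correlated at -0.299, 0.119 and -0.187. Against doxycycline replicate 1, control replicates 1 and 2 gave -0.299 and -0.222, and control replicate 3 gave 0.291. The deviations thus mainly set control replicate 3 apart from the other controls, so these values cannot decide whether the numbers pair. With the number as a block, 7 of the 33 were called, Gclm no longer (edgeR adjusted p = 0.0538), along with 65 genes of the surrounding lists and 4509 of all genes.

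Signs of genes that were not called turned in several settings, and the cause was not tested. On total counts the log2 fold changes were -0.41 for Keap1, -0.10 for Gss, -0.31 for Gpx3, -0.33 for Gstt1, -0.35 for Mgst3, -0.13 for Txn1, -0.35 for Cat, -0.09 for Sod1 and -0.06 for Sod2. With the length trend removed they were 0.22 for Gstm3, 0.03 for Gstp1, 0.08 for Mgst1, 0.04 for Prdx3 and 0.14 for Prdx5. Over the fits that leave out 1 library each, the lowest and highest values were -0.01 and 0.11 for Keap1, -0.72 and 0.16 for Gpx1, -0.15 and 0.79 for Gpx3, -0.83 and 0.14 for Gsta3, -0.85 and 0.16 for Gstm1, -0.31 and 0.36 for Gstm3 and -0.17 and 0.88 for Gstt1. They were -0.52 and 0.26 for Mgst1, -0.24 and 0.99 for Mgst3, -0.79 and 0.36 for Prdx1, -0.91 and 0.15 for Prdx2, -0.41 and 0.22 for Prdx3 and 0.00 and 0.31 for Cat. Control replicate 3 was the library left out at the highest value of each of these but Keap1, where it gave the lowest.

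With 3 libraries a group and 1 control apart, the spread between controls limits the calls for short transcripts. It also limits those for longer ones such as Prdx1, Prdx6 and Cat. Counts of 23 in the lowest cell limit Gpx3. The shared sequence of Gpx4, Gsta1 and Gstp1 limits what their rows hold. The lack of a strand setting limits the rows of genes with antisense neighbours, among them Prdx5, Prdx2, Keap1 and Gss.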

Other observations

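Transferase genes that lie next to those described above were measured too, and no difference between them was tested. On chromosome 9, Gm3776, a neighbour of Gsta1 that shares 82.9% of its 50-base stretches, averaged 15.6 ± 1.33 CPM with doxycycline and 5.67 ± 4.20 CPM in control organoids (SD, n = 3 each; log2 fold change 1.48, edgeR adjusted p = 0.0438). Its log2 fold change was 2.29 without control replicate 3. Gsta2 in the same cluster had a log2 fold change of 0.63 (edgeR adjusted p = 0.344), and of 1.46 without control replicate 3. On chromosome 3, Gstm2 averaged 124.1 ± 9.87 CPM with doxycycline and 58.0 ± 41.7 CPM in control organoids, which did not overlap, yet missed the threshold (log2 fold change 1.10, edgeR adjusted p = 0.0904). Without control replicate 3 Gstm2 was called higher (1.88, edgeR adjusted p = 2.21e-12). All of these were picked with their values in view.

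Some genes often read beside NRF2 were not in the rule for named genes. Slc7a11, the cystine importer, had 349.9, 381 and 417 CPM with doxycycline and 266, 240.3 and 77.1 CPM in control libraries, which did not overlap. Its log2 fold change was 0.98 with all libraries (edgeR adjusted p = 0.103) and 0.61 without control replicate 3 (adjusted p = 1.88e-06). Sqstm1, the autophagy receptor that binds KEAP1, had 529, 595 and 565 CPM with doxycycline and 226, 223 and 390.2 CPM in control libraries, and rose (log2 fold change 1.01, edgeR adjusted p = 0.0162). The ferritin light chain gene Ftl1 and the metallothionein genes Mt1 and Mt2 had control replicate 3 above every doxycycline library, with log2 fold changes of 0.16, -0.21 and -0.71 with all libraries and 1.13, 0.69 and 0.36 without it. These, too, were picked with their values in view.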
